A study of Mus musculus with 2 samples.

Results

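The genes Elovl4, Cyp4f39, Cers3, Ugcg, Abca12, Pnpla1, Abhd5, Alox12b and Aloxe3 build, carry and finish the lipids that seal the cornified layer of the epidermis, and loss of function of most of them is a known cause of ichthyosis. The 9 genes were chosen by symbol, and each had 1 row among the 27998 gene rows of both count tables. Single-cell RNA sequencing was done on the epidermis of 2 male C57BL/6J mice at postnatal day 0, with 1 library per mouse (mouse 1 and mouse 2). Both mice carried the Chrm3 KO, a knockout of the gene encoding the M3 muscarinic acetylcholine receptor, in every cell group compared below. WT libraries were not analysed here, and all levels below are those of KO epidermis, with no WT level to set beside them. The groups compared were cell groups within these 2 mice, and p-values measure the spread between the mice.

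In the epidermis, ELOVL4 lengthens fatty acids to chains far longer than those of common membrane lipids, CYP4F39 adds a hydroxyl group to the far end of the chain, and CERS3 joins the chain to a sphingoid base to form a ceramide. PNPLA1, aided by ABHD5, links linoleic acid to the hydroxylated ceramide. UGCG adds glucose to the ceramide, and ABCA12 carries the product into lamellar granules. Keratinocytes (KCs) of the granular layer empty these granules into the space between the cells. The lipoxygenases ALOX12B and ALOXE3 oxidise the linked linoleic acid before the ceramide is bound to the protein envelope of the corneocyte. Sebaceous cells make a different lipid mixture, sebum, which is rich in wax esters and triglycerides.

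In the cells kept, 13 unique molecular identifiers (UMIs, each marking 1 captured transcript) were counted as Chrm3 in mouse 1, which is 0.137 CPM (UMIs divided by all UMIs of the same cells, times a fixed factor), and 19 in mouse 2, which is 0.128 CPM. Both lie above the level that a count of 0 allows (0.0316 and 0.0202 CPM), and the counts hold no information on whether such a UMI stems from the deleted stretch. The libraries held 109756784 and 166441732 UMIs, and 7607 of 10816 and 11881 of 15867 barcodes were kept, of which 34 barcode sequences occurred in both mice. Cells were named by clustering from marker genes, with the 9 genes and the lipid lists used below left out of the clustering, and all names were rebuilt here. The interfollicular epidermis (IFE) was divided into basal KCs (1455 cells of mouse 1 and 2563 of mouse 2), basal dividing KCs (497 and 977), transitional KCs (221 and 358), differentiated KCs (312 and 389) and terminally differentiated KCs (44 and 55). Sebaceous-like cells numbered 99 and 152. In these groups the summed level of the 9 basal IFE markers went from between 27730 and 29260 CPM in basal KCs to between 7034 and 8416 CPM in differentiated KCs, while the 10 differentiated IFE markers went from between 3442 and 4880 to between 63500 and 64270 CPM. Transitional KCs had 32150 and 35220 CPM of the basal markers, above basal KCs, and 19700 and 17060 CPM of the differentiated markers. All 12 sebaceous markers were found in the sebaceous-like cells, with a summed level of 16610 and 11870 CPM, against 304 and 257 CPM in differentiated KCs.

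The terminally differentiated KCs were the smallest and shallowest group, with 292531 and 573197 UMIs in all and a median of 3940.5 and 8950 UMIs per cell, against 18549.5 and 16925 in differentiated KCs. The 15 terminally differentiated IFE markers summed to 46910 and 50480 CPM there, with 1 of the 15 at 0 in each mouse. But markers of several other cells were also higher in this group than in differentiated KCs. The 8 melanocyte markers summed to 526 and 342 CPM (9.78 and 71.8 CPM in differentiated KCs), with none of the 8 at 0. The markers of dividing cells summed to 1193 and 1361 CPM (160 and 209 CPM in differentiated KCs), those of the hair follicle germ to 1248 and 1181 CPM (238 and 303), those of the inner root sheath to 858 and 529 CPM (205 and 241) and dermal markers to 222 and 468 CPM (32.5 and 97.5). Markers of Langerhans cells or macrophages and of T cells were also higher, at up to 58.1 CPM, while Merkel cell, endothelial and red blood cell markers were at 0. Sebaceous markers were lower, at 232.5 and 146.5 CPM (304 and 257 CPM in differentiated KCs). Those of the upper hair follicle were lower in mouse 1 and slightly higher in mouse 2, at 1357 and 2591 CPM (3100 and 2474). The part of RNA from other cells in the levels given below for terminally differentiated KCs was not tested.

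Elovl4, whose product makes the very long fatty acids, had its highest levels in sebaceous-like cells. It was counted at 11.1 CPM in basal KCs of mouse 1 and 15.6 CPM in those of mouse 2, at 28.4 and 23.1 CPM in transitional KCs, and at 481 and 418 CPM in differentiated KCs. Terminally differentiated KCs had 297 and 256.5 CPM, and sebaceous-like cells 2274 and 1062 CPM. The mice did not overlap between these 5 groups, and edgeR's quasi-likelihood test called all neighbours in the order of levels different. From transitional to differentiated KCs Elovl4 rose by 4.17 ± 0.33 on the log2 scale (SE, edgeR adjusted p = 1.38e-06). It was 1.02 ± 0.31 lower on the log2 scale in terminally differentiated than in differentiated KCs (edgeR adjusted p = 0.0275), a call that was lost with cells under 5% mitochondrial UMIs only (-1.14, adjusted p = 0.0841). Sebaceous-like cells lay 1.77 ± 0.27 above differentiated KCs on the same scale (edgeR adjusted p = 0.00012), but under the same limit the difference was 1.00 with an adjusted p of 0.0581.

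Cyp4f39, which encodes the fatty acid omega-hydroxylase, was the sparsest of the 9 genes in UMIs. It had 9 UMIs in differentiated KCs of mouse 1 and 11 in those of mouse 2 (1.33 and 1.35 CPM), and 8 and 6 UMIs in sebaceous-like cells (3.56 and 1.94 CPM). In basal KCs it had 1 and 0 UMIs, and in transitional and terminally differentiated KCs none. Its level in differentiated KCs was at least 3.51-fold higher than in transitional KCs, taking 3 counts over both mice as the limit that a count of 0 allows (edgeR adjusted p = 0.0199). Against basal KCs the ratio was 49.7 (exact 95% counting interval 7.94 to 2059). A change between differentiated and terminally differentiated KCs was not detectable at this depth, since a count of 0 in the latter allows up to 3.465 CPM. The difference between sebaceous-like cells and differentiated KCs missed the threshold (ratio 1.96, counting interval 0.914 to 4.07, edgeR adjusted p = 0.304). Counting intervals here and below cover counting error only.

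Cers3, the ceramide synthase for very long acyl chains, was counted in every IFE stage of both mice. Its level was 14.2 and 15.5 CPM in basal KCs, 13.4 and 11.02 CPM in transitional KCs and 24.3 and 21.2 CPM in differentiated KCs. From basal to differentiated KCs it rose by 0.77 ± 0.18 on the log2 scale (SE, edgeR adjusted p = 0.00267). Terminally differentiated KCs had 44.4 CPM in mouse 1 and 19.2 CPM in mouse 2, on either side of the differentiated KCs, and the log2 difference of 0.01 ± 0.34 did not pass the test (edgeR adjusted p = 0.991). In sebaceous-like cells Cers3 had 2 and 8 UMIs (0.891 and 2.59 CPM). This was 2.96 ± 0.37 below basal KCs (edgeR adjusted p = 1.13e-05) and 3.73 ± 0.35 below differentiated KCs (adjusted p = 1.1e-06) on the log2 scale, and the mice of these groups did not overlap.

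Ugcg, the glucosylceramide synthase, was also counted in every IFE stage of both mice. It had 5.54 and 7.86 CPM in basal KCs, 7.34 and 13.1 CPM in transitional KCs, 28.8 and 21.3 CPM in differentiated KCs, and 54.7 and 66.3 CPM in terminally differentiated KCs. Both mice were higher at each of the last 2 steps, which passed the test at a log2 difference of 1.26 ± 0.29 (edgeR adjusted p = 0.00698) and of 1.01 ± 0.34 (adjusted p = 0.0456). The second of these calls ended when called doublets were left out (adjusted p = 0.0503), at a clustering resolution of 1.2 (difference 0.11, adjusted p = 0.829), without integration (0.41, adjusted p = 0.264) and with cells under 5% mitochondrial UMIs (0.59, adjusted p = 0.469), where the first was lost too (0.79, adjusted p = 0.392). In sebaceous-like cells Ugcg had 2 and 11 UMIs (0.891 and 3.56 CPM), which was 3.49 ± 0.43 below differentiated KCs on the log2 scale (edgeR adjusted p = 1.35e-05).

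Abca12, the lipid transporter of lamellar granules, was low in basal KCs (2.62 and 2.66 CPM) and transitional KCs (2.23 and 3.18 CPM). It had 30.8 and 23.9 CPM in differentiated KCs, 58.1 and 102.9 CPM in terminally differentiated KCs, and 33.0 and 25.9 CPM in sebaceous-like cells. The terminally differentiated levels rest on 17 and 59 UMIs, and a single cell of mouse 2 held 23 of the 59. Sebaceous-like cells and differentiated KCs overlapped, whereas both lay well above the earlier IFE stages. The rise from transitional to differentiated KCs was 3.31 ± 0.35 on the log2 scale (edgeR adjusted p = 1.53e-05), and that from basal KCs to sebaceous-like cells was 3.48 ± 0.29 (adjusted p = 2.53e-07). Between sebaceous-like cells and differentiated KCs the UMI ratio was 1.07 (counting interval 0.881 to 1.29), and the log2 difference was -0.04 ± 0.25 (edgeR adjusted p = 0.927). That comparison depended on how cells were grouped. The log2 difference was -1.197 at a resolution of 1.2 (edgeR adjusted p = 0.000608) and -0.83 without integration (adjusted p = 0.0235). Differentiated KCs numbered 80 and 88 cells at a resolution of 1.2 and 115 and 121 without integration, against 312 and 389 in the main grouping. The higher level in terminally differentiated KCs (1.36 ± 0.30, edgeR adjusted p = 0.0047) was lost at a resolution of 1.2 (0.22, adjusted p = 0.575), without integration (0.66, adjusted p = 0.118) and with cells under 5% mitochondrial UMIs (-0.08, adjusted p = 0.934).

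Pnpla1, the transacylase that forms acylceramide, and Abhd5, which encodes its activator and also activates triglyceride hydrolysis, parted in sebaceous-like cells. Pnpla1 had 0.225 and 0.465 CPM in basal KCs and 2 and 1 UMIs in transitional KCs, then 11.4 and 11.9 CPM in differentiated KCs and 13.7 and 34.9 CPM in terminally differentiated KCs. The ratio of differentiated to transitional KCs was 30.6 (exact 95% counting interval 10.3 to 149.6, edgeR adjusted p = 6.99e-05), and the further log2 difference of 0.93 ± 0.45 did not pass (adjusted p = 0.163). In the sebaceous-like cells of both mice together Pnpla1 had 1 UMI, against 174 in differentiated KCs, a ratio of 0.0161 (counting interval 0.000404 to 0.0907, edgeR adjusted p = 3.05e-05). Abhd5 was counted in all stages, at 24.9 and 25.4 CPM in basal KCs, 35.4 and 33.0 CPM in transitional KCs, 89.7 and 77.4 CPM in differentiated KCs and 58.1 and 52.3 CPM in terminally differentiated KCs. Sebaceous-like cells had 148.7 and 119.2 CPM, above every IFE stage in both mice. Within basal KCs, a cluster of 313 and 584 cells was already near the transitional level, at 36.5 and 32.6 CPM, and the other basal clusters lay lower. Over all basal KCs, Abhd5 rose by 0.57 ± 0.14 on the log2 scale to transitional KCs (edgeR adjusted p = 0.0121). From there to differentiated KCs it rose by 1.32 ± 0.14 (edgeR adjusted p = 1.53e-05). Terminally differentiated KCs lay 0.91 ± 0.21 below differentiated KCs on that scale (edgeR adjusted p = 0.00606). With cells under 5% mitochondrial UMIs, neither the step from basal to transitional KCs (0.27, adjusted p = 0.692) nor that to terminally differentiated KCs (-0.75, adjusted p = 0.0737) was called. Its difference of 0.54 ± 0.13 between sebaceous-like cells and differentiated KCs (edgeR adjusted p = 0.00354) was near 0 at a resolution of 1.2 (-0.00078, adjusted p = 0.999), and was 0.11 without integration (adjusted p = 0.568) and -0.11 with cells under 5% mitochondrial UMIs (adjusted p = 0.842).

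The lipoxygenase genes Alox12b and Aloxe3 lie next to each other on chromosome 11 (GRCm38), on the plus strand, Aloxe3 at chr11:69125896-69149115 and Alox12b at chr11:69156989-69169792, with 7873 bases between them. Alox12b had 9 and 16 UMIs in basal KCs (0.674 and 0.676 CPM) and 0 and 1 UMIs in transitional KCs. It then had 128 and 126 UMIs in differentiated KCs (19.0 and 15.4 CPM), and 71.8 and 22.7 CPM in terminally differentiated KCs on 21 and 13 UMIs. The ratio of differentiated to transitional KCs was 133.8 (exact 95% counting interval 23.8 to 5306, edgeR adjusted p = 1.18e-05), and both mice were higher again in terminally differentiated KCs, without passing the test (log2 difference 0.95 ± 0.39, adjusted p = 0.0967). Not a single Alox12b UMI was counted in the 251 sebaceous-like cells. Their level was at least 30.3-fold lower than that of differentiated KCs (edgeR adjusted p = 5.11e-06), with 3 counts over both mice (0.5625 CPM) as the limit.

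Aloxe3 had 1.87 and 1.52 CPM in basal KCs, 2.23 and 3.81 CPM in transitional KCs, 9.78 and 10.4 CPM in differentiated KCs and 37.6 and 48.9 CPM in terminally differentiated KCs. The levels of both mice rose at the last 2 steps, by 1.70 ± 0.33 (edgeR adjusted p = 0.00232) and by 1.85 ± 0.34 on the log2 scale (adjusted p = 0.00124). The last of these was not called at a resolution of 1.2 (0.80, adjusted p = 0.0883) or with cells under 5% mitochondrial UMIs (1.18, adjusted p = 0.159). In sebaceous-like cells Aloxe3 had 1 and 7 UMIs (0.445 and 2.27 CPM), 2.88 ± 0.44 below differentiated KCs on the log2 scale (edgeR adjusted p = 0.000106). Against basal KCs the difference was -0.13 ± 0.55 and did not pass (adjusted p = 0.863).

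**Figure D1:**
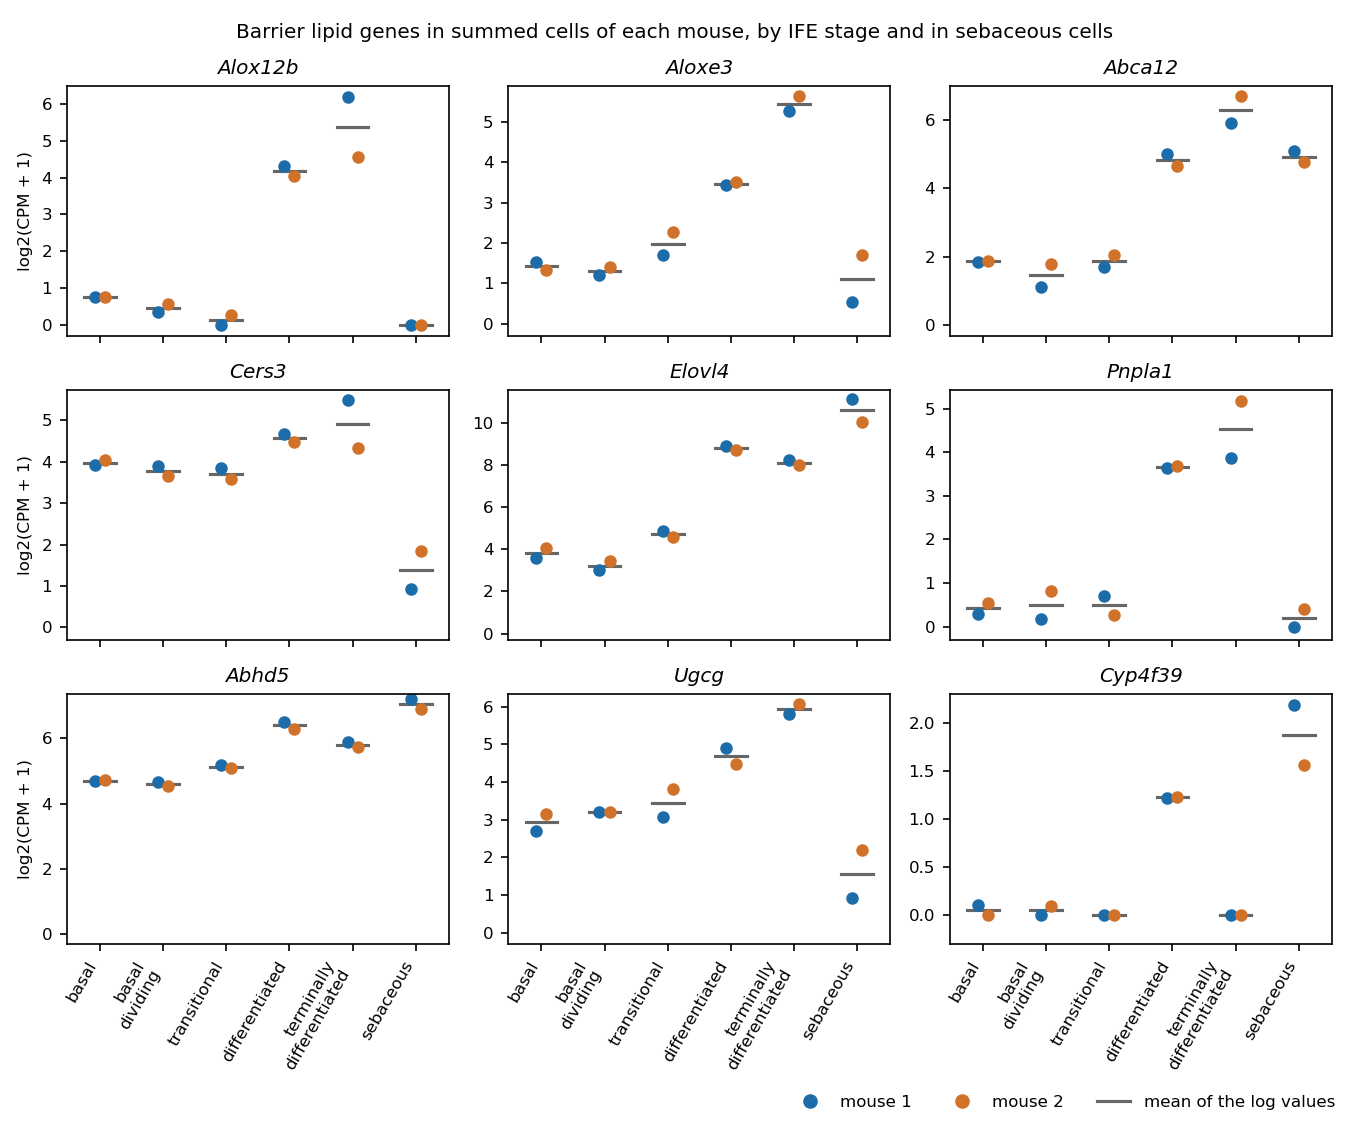
Level of each of the 9 genes in the 5 IFE stages and in sebaceous-like cells, as log2(CPM + 1) of the summed UMIs. Each point is 1 mouse and each bar the mean of the log values of both mice; Elovl4, Abhd5 and Cyp4f39 have their highest mean in sebaceous-like cells, and the other 6 genes in terminally differentiated KCs.

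Counted by comparison, all 9 members were higher in differentiated than in transitional KCs, where 11.4% of the 12020 genes tested were called higher, 8.65% lower and 20.1% in either direction, and their median log2 difference was 3.31, against -0.01 over all genes (1.81 with Cyp4f39 at its lower bound). With cells under 5% mitochondrial UMIs, Elovl4, Abca12, Alox12b, Pnpla1 and Abhd5 were called at this step. Aloxe3 (adjusted p = 0.289), Cers3 (adjusted p = 0.603) and Ugcg were not, and Cyp4f39 had too few counts to be tested. From basal to transitional KCs 2 of 9 rose, Elovl4 and Abhd5, where 9.98% of all genes were called higher, 10.3% lower and 20.3% in either direction. The Elovl4 difference there was 1.04 ± 0.34 on the log2 scale (edgeR adjusted p = 0.0453), and it was not called with DESeq2's size factors (adjusted p = 0.0511) or with cells under 5% mitochondrial UMIs (0.86, adjusted p = 0.604). From differentiated to terminally differentiated KCs, Aloxe3, Abca12 and Ugcg were higher and Elovl4 and Abhd5 lower (3 of 9 and 2 of 9), where 12.3% and 12.4% of all genes were called in these directions and 24.7% in all, and Alox12b, Pnpla1, Cers3 and Cyp4f39 did not pass. Set against basal KCs, all 9 were higher in differentiated KCs, where 25.4% of all genes were called higher, 26% lower and 51.4% in either direction, with log2 differences from 0.77 ± 0.18 for Cers3 to 5.21 ± 0.32 for Elovl4 among the 8 genes with over 3 UMIs in each group. This comparison shares its sums with the step comparisons. Between basal dividing and basal KCs edgeR called 0 of 9, where 13.1% of all genes were called (9.5% higher and 3.62% lower), 0 had an unadjusted p under 0.05, and DESeq2 also called 0. With no filter on low counts 1 was called, Elovl4, at -0.71 on the log2 scale (adjusted p = 0.00021, and -0.70 ± 0.34 with adjusted p = 0.216 under the filter).

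In sebaceous-like cells against differentiated KCs, Elovl4 and Abhd5 were higher (2 of 9, where 19.7% of all genes were called higher), and Alox12b, Aloxe3, Cers3, Pnpla1 and Ugcg were lower (5 of 9, where 19.5% were called lower and 39.2% in either direction). The share of members called higher was near that of all genes, and neither of these calls held with cells under 5% mitochondrial UMIs, as given above. The 5 lower calls held there. The median log2 difference of the members was -2.88, against 0.01 over all genes. Against basal KCs, Elovl4, Abhd5, Abca12 and Cyp4f39 were higher (4 of 9, where 25.6% of all genes were called higher) and Cers3 and Ugcg lower (2 of 9, where 27.3% were called lower and 53% in either direction). The log2 differences were 6.98 ± 0.35 for Elovl4, 2.44 ± 0.13 for Abhd5 and -1.46 ± 0.49 for Ugcg, and the ratio for Cyp4f39 was 97.2 on 14 UMIs against 1 (counting interval 14.8 to 4109). Alox12b, at 0 UMIs, was at least 1.201-fold lower and missed the threshold (edgeR adjusted p = 0.0798), and Aloxe3 and Pnpla1 missed it too. The 2 sebaceous comparisons share the sebaceous sums. The 8 upper hair follicle markers summed to 5755 and 5015 CPM in sebaceous-like cells, with 1 of the 8 at 0 in each mouse. In differentiated KCs they summed to 3100 and 2474 CPM. Most of the sebaceous sum was Krt79, with a mean of 4270 CPM against 863 CPM in differentiated KCs. On the means of both mice, the rest of the list together was lower in sebaceous-like cells. The part of upper hair follicle RNA in the sebaceous differences was not tested.

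**Figure D2:**
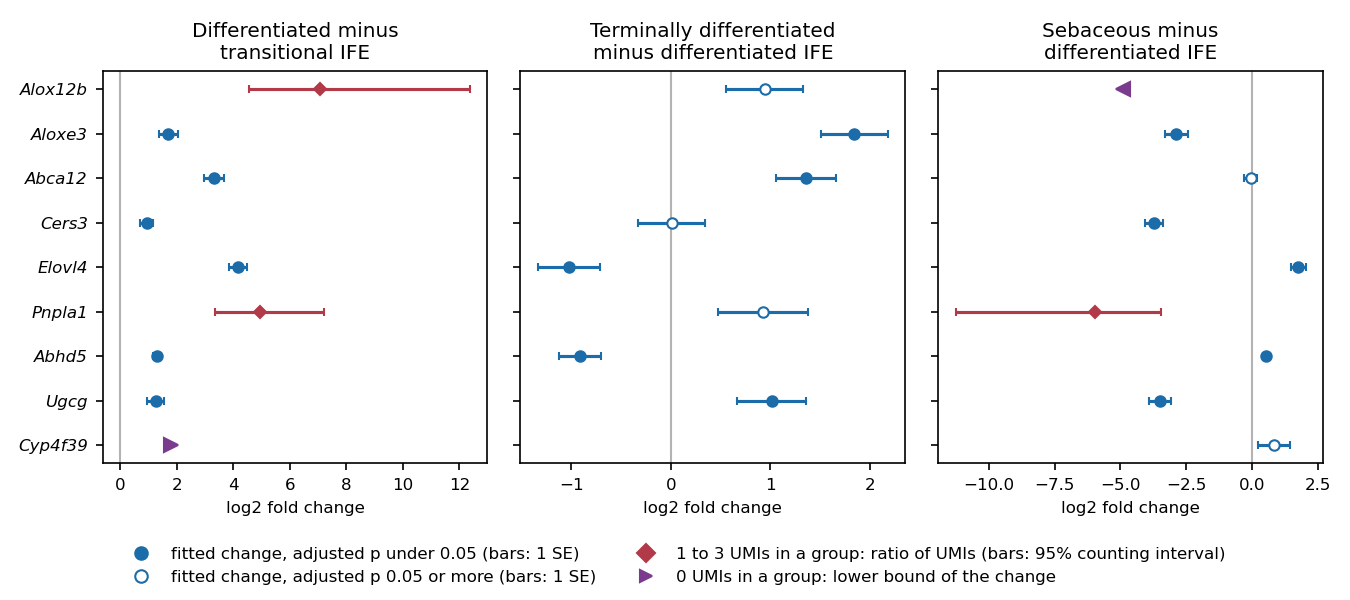
Log2 differences of the 9 genes for differentiated against transitional KCs, terminally differentiated against differentiated KCs, and sebaceous-like cells against differentiated KCs. Filled circles are differences past an adjusted p of 0.05 and open circles those that are not, with bars of 1 SE; red diamonds are UMI ratios with their 95% counting interval where a group holds 1 to 3 UMIs, and purple triangles are bounds where a group holds none. The first panel lies wholly above 0. In the second panel Cyp4f39 has no mark, since a change was not detectable there. The sebaceous panel has the called genes Elovl4 and Abhd5 above 0 and Alox12b, Aloxe3, Cers3, Pnpla1 and Ugcg below. Cyp4f39 (above 0) and Abca12 (near 0) are open circles there.

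Over the 12 sums, which come from the same 2 libraries and 6 cell groups, the levels of some members ran alike. Alox12b, Aloxe3, Pnpla1 and Ugcg correlated with each other at a Pearson r from 0.859 (Alox12b and Ugcg) to 0.937 (Alox12b and Pnpla1). Elovl4, Abhd5, Abca12 and Cyp4f39 correlated with each other at an r from 0.514 (Abca12 and Cyp4f39) to 0.972 (Elovl4 and Abhd5). Between these 4 and the first 4 genes r went from -0.39 (Ugcg and Cyp4f39) to 0.694 (Abca12 and Pnpla1), with -0.01 for Elovl4 and Ugcg, so the ranges overlapped. Cers3 correlated with Ugcg at 0.859 and with Cyp4f39 at -0.58. Among all other genes tested, the pattern most like that of Alox12b was that of the keratin gene Krt78 (r = 0.983), and Pnpla1 was most like Cnfn, a cornified envelope gene (0.982). Aloxe3 was most like Wfdc21 (0.976), Abca12 like the calmodulin-like gene Calml3 (0.983), Ugcg like the keratin gene Krt80 (0.985) and Cers3 like Srgap2 (0.985). Elovl4 was most like Rhou (0.992) and then Ly6g6e (0.989), and Ly6g6e was also the second for Abhd5 (0.987), after Sdr16c6 (0.988). Cyp4f39 was most like Rtn4rl1 (0.988). Next in likeness came Scd2 for Alox12b (0.982), Cysrt1 for Aloxe3 (0.974), Ifrd1 for Abca12 (0.977), Pcmtd1 for Cers3 (0.983), Cpm for Ugcg (0.959) and Gm28515 for Cyp4f39 (0.988), and for Pnpla1 a row with the symbol Flg (ENSMUSG00000102829, 1 of 7 such rows, 0.978). These values describe 12 sums that share libraries and depth. Those of Cyp4f39 rest on the differentiated and sebaceous-like sums, since it had at most 1 UMI in every other sum.

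The 250 bases before the RefSeq start of transcription are shown for 3 members, since Alox12b and Pnpla1 moved together over the sums, while Elovl4 was highest in sebaceous-like cells, in which Alox12b and Pnpla1 had at most 1 UMI. Each is given 5′ to 3′ on the transcript strand, from RefSeq on GRCm38.p6, with matches to CACCC, a sequence that KLF factors can bind, or its reverse GGGTG in capitals.
Alox12b, chr11:69156822-69157071, plus strand: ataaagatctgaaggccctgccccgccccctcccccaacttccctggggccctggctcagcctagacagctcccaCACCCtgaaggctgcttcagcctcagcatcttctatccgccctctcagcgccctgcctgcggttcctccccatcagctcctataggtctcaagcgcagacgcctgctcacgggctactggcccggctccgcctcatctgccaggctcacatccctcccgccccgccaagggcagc
Pnpla1, chr17:28858161-28858410, plus strand: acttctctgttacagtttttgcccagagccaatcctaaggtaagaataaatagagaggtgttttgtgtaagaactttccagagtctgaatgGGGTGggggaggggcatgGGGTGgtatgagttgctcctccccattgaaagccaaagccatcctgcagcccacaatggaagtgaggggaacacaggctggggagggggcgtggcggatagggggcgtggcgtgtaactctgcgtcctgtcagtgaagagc
Elovl4, chr9:83806306-83806555, minus strand: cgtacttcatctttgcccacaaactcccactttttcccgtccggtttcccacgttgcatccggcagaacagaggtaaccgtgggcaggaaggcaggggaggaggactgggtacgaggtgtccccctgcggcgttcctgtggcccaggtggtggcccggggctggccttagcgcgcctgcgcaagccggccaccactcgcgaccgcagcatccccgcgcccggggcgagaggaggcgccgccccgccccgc
The Alox12b window held 1 match, the Pnpla1 window 2 and the Elovl4 window none. RefSeq and GENCODE place the start of Alox12b differently, so its window ends inside the gene as placed above (GENCODE start 69156989). Of the 8 members with a promoter in the table (all but Aloxe3), 4 held a match, namely Alox12b, Cers3, Pnpla1 and Ugcg, a share near the 52% of all 32851 promoters of the same length. The AP-1 sequence TGANTCA and the GRHL sequence AACCNGTT, searched on both strands, were in none of the 8 windows and in 6.75% and 1.79% of all promoters. The nuclear receptor half-site AGGTCA was in the windows of Abhd5 and Cers3 and in 14% of all promoters. A match is a stretch of letters and no measured binding.

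Within a group the members were spread unevenly over the cells. In differentiated KCs, Elovl4 was found in 271 of 312 cells of mouse 1 (86.9%) and 325 of 389 of mouse 2 (83.5%), with a median of 5 and 4 UMIs per cell. Melanocyte-like cells, given for comparison, had an Elovl4 UMI in 10.3% and 13.1% of cells at a median of 8786 and 9674.5 UMIs per cell. Differentiated KCs were deeper, at 18549.5 and 16925. Upper hair follicle-like cells, nearer in depth at 15344.5 and 16220, had an Elovl4 UMI in 66% and 61.9% of cells. Over both mice 10.6% of the melanocyte-like cells were called as doublets, and the part of these in such shares was not tested. In differentiated KCs, Alox12b was found in 25 cells of mouse 1 (8.01%) and 35 of the 389 of mouse 2. Those cells held 5.12 and 3.60 UMIs each on average and up to 22 and 16. Melanocyte-like cells had an Alox12b UMI in 0.915% and 0.687% of cells. Alox12b UMIs were therefore held by a small share of the differentiated KCs, at several UMIs per cell. The 10% of differentiated KCs with the most Alox12b UMIs were deeper than the rest, with a median of 29048 and 24132 UMIs against 18004 and 16444.5. The part of depth in this was not tested. The other members, Aloxe3, Pnpla1, Abca12, Cers3, Ugcg, Abhd5 and Cyp4f39, were found in between 2.06% (Cyp4f39, mouse 2) and 72.4% (Abhd5, mouse 1) of the differentiated KCs.

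To compare cells of unlike depth, each was thinned to 3000 UMIs, which left out 21 of 44 and 14 of 55 terminally differentiated KCs and at most 4 cells per mouse of the differentiated KCs. A differentiated KC then showed a mean of 1.08 and 0.946 of the 9 genes, a terminally differentiated KC 1.09 and 1.22, a sebaceous-like cell 0.606 and 0.587, a transitional KC 0.244 and 0.281 and a basal KC 0.190 and 0.211. Unthinned, the means were 2.93 and 2.69 in differentiated KCs, 2.32 and 2.45 in terminally differentiated KCs, 1.67 and 1.61 in sebaceous-like cells, and 0.517 and 0.584 in basal KCs. At equal depth the differentiated and terminally differentiated KCs stood above all earlier stages in both mice. The members had unequal parts in this mean. In thinned differentiated KCs Elovl4 was found in 56.8% and 51.95% of cells and Abhd5 in 21.6% and 19.5%, while each other member was found in at most 7.42%.

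Elovl4 in sebaceous-like cells came from few cells. It was not found in 62.6% of them in mouse 1 and in 64.5% in mouse 2, while the 10% of cells with the most Elovl4 UMIs (10 of 99 and 16 of 152 cells) held 90.5% and 97.7% of its UMIs, with up to 927 and 603 in a single cell. In differentiated KCs the top 10% of cells held 44.6% and 44.3%, and up to 94 UMIs in each mouse. Outside these top cells Elovl4 was at 278 and 32.1 CPM in sebaceous-like cells, and in differentiated KCs outside their own top 10% it was at 334 and 296 CPM. Thinned to 3000 UMIs, 22.2% and 17.3% of sebaceous-like cells and 56.8% and 51.9% of differentiated KCs showed an Elovl4 UMI, so the share of cells ran against the CPM and gives no order of the 2 groups. The top cells were deeper than the rest, with a median of 31164 and 40364 UMIs against 16720 and 14562, and the part of depth in this was not tested. Abhd5 was more even, with 38.6% and 42.1% of its UMIs in its own top 10% of sebaceous-like cells.

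**Figure D3:**
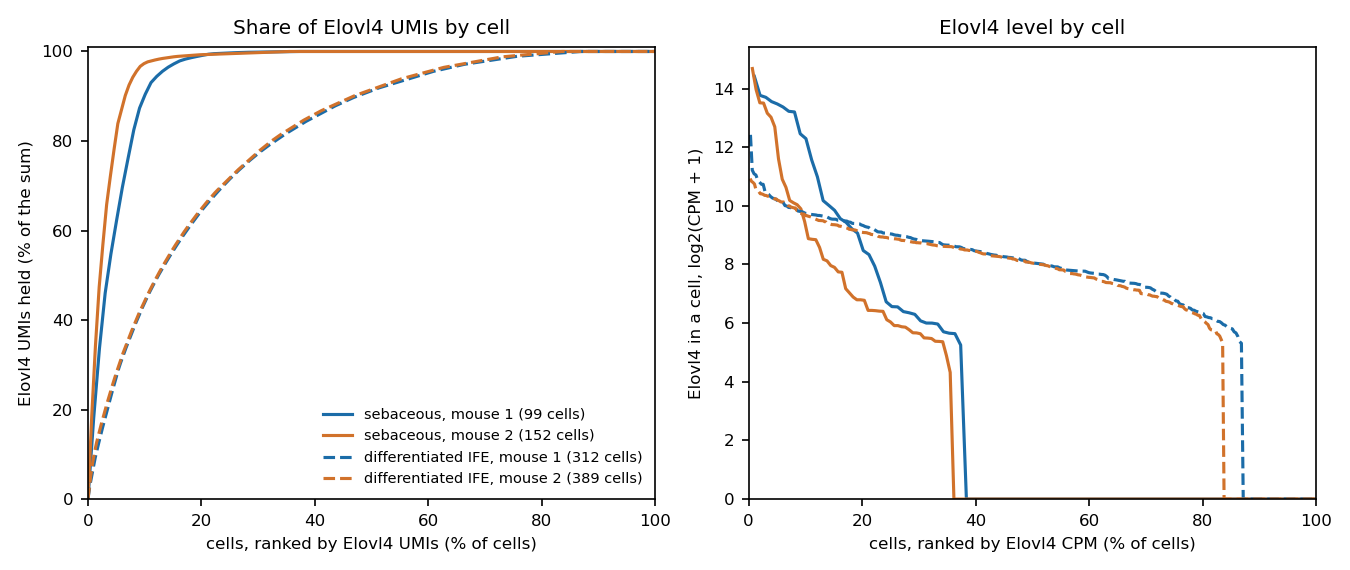
Elovl4 UMIs over single cells, with sebaceous-like cells as solid and differentiated KCs as dashed lines for each mouse. The left panel gives the cumulative share of UMIs in percent against cells ranked by their UMIs, and the right panel the level per cell as log2(CPM + 1) in rank order; the sebaceous curves reach 90.5% and 97.7% within the top 10% of cells, where the differentiated curves reach 44.6% and 44.3%.

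Outside the IFE and the sebaceous-like cells, the upper hair follicle-like cells (350 and 349 cells) held most of the members. Elovl4 was at 190.5 and 178.6 CPM there, Abca12 at 31.5 and 28.1 CPM, Pnpla1 at 10.3 and 9.40 CPM, Ugcg at 25.3 and 19.1 CPM and Cers3 at 16.1 and 14.3 CPM. Alox12b had 0 and 6 UMIs (0 and 0.794 CPM), where Pnpla1, close to it over the 12 sums, had 73 and 71. The level of Abca12, Pnpla1 and Ugcg in these cells was near that of differentiated KCs, and that of the lipoxygenases was not, and no test was run on this group. Among cells that are no KCs, Ugcg was highest in T cell-like cells (71.6 and 70.2 CPM in 52 and 38 cells), and Abhd5 was at 56.4 and 63.2 CPM in melanocyte-like cells.

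**Figure D4:**
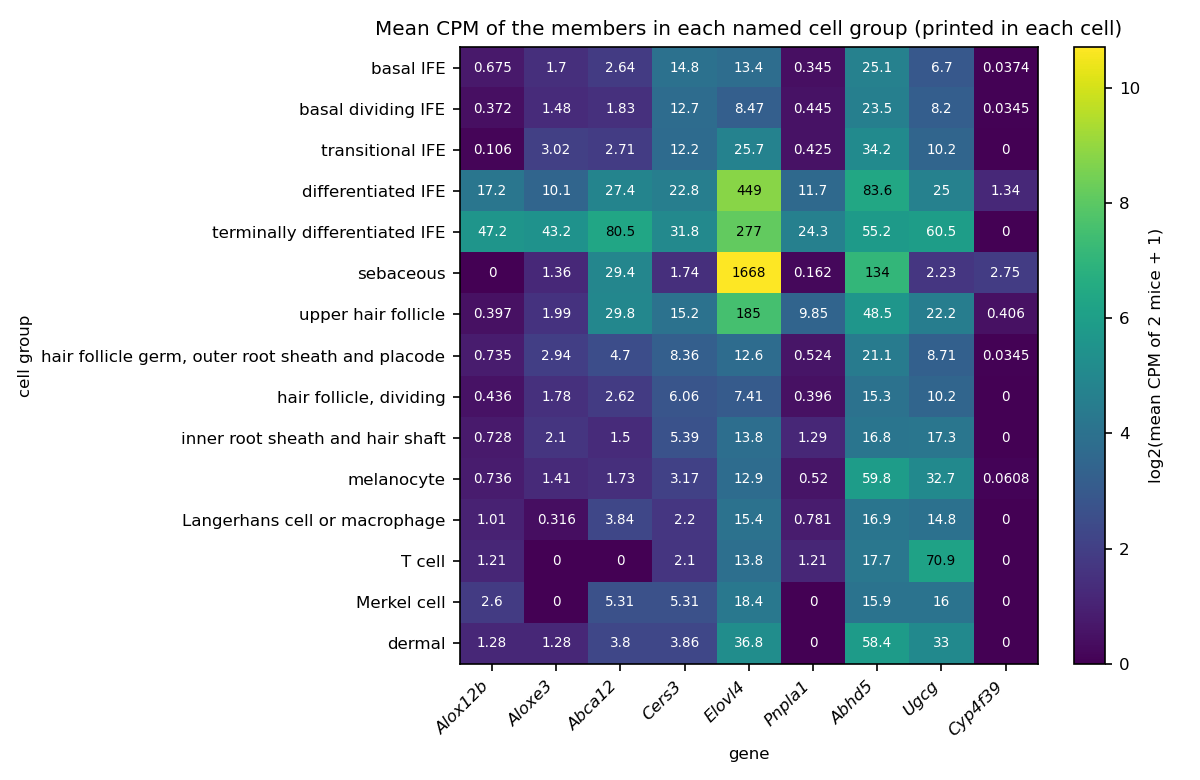
Mean CPM over both mice of the 9 genes (columns) in 15 cell groups (rows). Alox12b and Aloxe3 stand out in differentiated and terminally differentiated KCs, whereas Elovl4, Abca12 and Abhd5 are also high in sebaceous-like cells, and Abca12, Pnpla1 and Ugcg in upper hair follicle-like cells.

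The neighbouring lipid genes were read from 3 lists. Of 28 genes tested for sphingolipid synthesis and processing, 10 rose and 4 fell from transitional to differentiated KCs, with a median log2 difference of 0.29 over the list. All genes tested had a median of -0.01, and the background shares of genes called are those given for the members. The alkaline ceramidase Acer1 (3.84 ± 0.28 on the log2 scale), the serine palmitoyltransferase subunit Sptlc3 (2.22 ± 0.29) and the sphingosine kinase Sphk1 (1.76 ± 0.21) changed most. Into terminally differentiated KCs 4 rose and 8 fell, among them the ceramide desaturase Degs2 (3.97 ± 0.89, on 8 UMIs against 7), Sptlc3 (-2.19 ± 0.54) and the glycolipid transfer protein Gltp (-2.05 ± 0.16). From basal to transitional KCs 7 rose and 3 fell, led by Sphk1 (2.87 ± 0.27), Gltp (1.80 ± 0.14) and the ceramide synthase Cers2 (-1.28 ± 0.32). Against basal KCs, 15 were higher and 7 lower in differentiated KCs, with Acer1 at 4.75 ± 0.24 and Sphk1 at 4.63 ± 0.22 on the log2 scale and the fatty acid 2-hydroxylase Fa2h at 1 UMI against 29. In sebaceous-like cells 16 were higher and 4 lower than in basal KCs, with Fa2h (10.11 ± 0.30), Cers4 (9.60 ± 0.27) and Acer1 (6.09 ± 0.24) the most changed, and 12 were higher and 6 lower than in differentiated KCs. In the latter comparison Cers4, a ceramide synthase for shorter chains than those of Cers3, was 8.62 ± 0.27 higher on the log2 scale (2165 against 5.17 CPM over both mice), and Fa2h had 4409 UMIs against 1. Cers3 and Cers4 lay in opposite directions between these groups, and the log2 difference of Sphk1 was -5.03 ± 0.35.

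Of 22 genes tested for fatty acid elongation and activation, 10 rose and 1 fell from transitional to differentiated KCs, with a median log2 difference of 0.49. The acyl-CoA synthetase Acsl4 (3.00 ± 0.25) and the elongases Elovl1 (2.75 ± 0.22) and Elovl7 (2.67 ± 0.23) changed most. Into terminally differentiated KCs 1 rose, Acsl3 (2.08 ± 0.34), and 8 fell, with Acsl1 at -1.84 ± 0.22 and the thioesterase Acot2 at -1.54 ± 0.46. From basal to transitional KCs 7 rose, with Acsl1 (1.28 ± 0.15), Hacd1 (0.91 ± 0.17) and Acsl5 (0.87 ± 0.21) the most changed. Against basal KCs, 15 were higher and 3 lower in differentiated KCs, led by Elovl7 (3.26 ± 0.21), Acsl4 (2.80 ± 0.17) and Acsl1 (2.79 ± 0.14). In sebaceous-like cells the counts against basal KCs were also 15 higher and 3 lower, led by the acetyl-CoA carboxylase Acacb (8.66 ± 0.38), the fatty acid transporter Slc27a4 (6.06 ± 0.19) and the elongase Elovl5 (5.58 ± 0.41). In sebaceous-like cells 11 were higher and 4 lower than in differentiated KCs. There Acacb had 588 UMIs against 3 (110.3 against 0.201 CPM), and Slc27a4 was 4.18 ± 0.18 and Elovl5 3.91 ± 0.40 higher on the log2 scale.

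Of 26 genes tested for other lipoxygenases, lipid hydrolases and further lipid ichthyosis genes, 10 rose and 16 did not pass from transitional to differentiated KCs, with a median log2 difference of 0.66. The short-chain dehydrogenase gene Sdr9c7 went from 1 to 155 UMIs over both mice, the lipoxygenase gene Alox12e from 1 to 84, and the transglutaminase Tgm1 rose by 4.72 ± 0.49 on the log2 scale. Into terminally differentiated KCs 3 rose and 3 fell, with the lipases Lipn (5.85 ± 0.69) and Lipk (5.12 ± 0.61) higher and Alox12 (-2.70 ± 0.67, on 4 UMIs) lower. From basal to transitional KCs 5 rose, led by Nipal4 (2.60 ± 0.35), the sulfotransferase Sult2b1 (2.30 ± 0.31) and Pnpla3 (2.13 ± 0.52). Against basal KCs, 17 were higher and 2 lower in differentiated KCs, led by Sult2b1 (5.75 ± 0.26), Alox12 (5.45 ± 0.35) and Tgm1 (4.94 ± 0.35). Sebaceous-like cells had 13 higher than basal KCs, among them Pnpla5 with 79 UMIs against 1, the triglyceride synthase Dgat2 (4.65 ± 0.22) and Sult2b1 (4.44 ± 0.27), and 9 higher and 9 lower than differentiated KCs. Against the latter, Pnpla5 was at least 73.6-fold higher (79 UMIs against 0), Alox12 had 1 UMI against 367, and Nipal4, an ichthyosis gene, was at -4.59 ± 0.42 on the log2 scale. Between basal dividing and basal KCs edgeR called 1 of the 22 fatty acid genes, Acsl3, which was 0.55 ± 0.17 higher on the log2 scale in the dividing cells, while 7 had an unadjusted p under 0.05 and DESeq2 called 0. Of the 26 genes of the last list edgeR called 0, with an unadjusted p under 0.05 for 3, and DESeq2 also called 0.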

How the data were processed

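The deposited values are raw UMI counts for each gene in each barcode. Per the submitters' processing notes the authors used Cell Ranger 3.0.2 and mm10. The labels name version 1 of the 10x Chromium chemistry, and the study's methods name version 3.1. Kept were cells with 900 to 7700 genes whose mitochondrial share of UMIs was under 10% (70.3% and 74.9% of barcodes, with a median of 10480 and 10577 UMIs). Counts were log-normalized, integrated (2000 variable genes, 30 dimensions) and clustered at resolution 0.8 in Seurat 5.3.0 (R 4.3.3), and IFE cells were clustered again. Clusters were named from marker lists, and 2256 IFE cells stayed unnamed. Of the 7 rows with the symbol Flg, the marker lists used the first. The 9 genes and the 3 lipid lists took no part in clustering. They were chosen, like the markers, tests and alternatives, with earlier results of these data known. Named were all 9 genes, the 3 called genes with the largest fold of each list and comparison, and the 2 genes with the most alike pattern of each member. A result of the sphingolipid list for basal dividing against basal KCs is not reported here.

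UMIs were summed per mouse and group, so that mice and not cells were the replicates. All 12 sums were fitted together in edgeR 4.0.16 with TMM scaling and its filterByExpr filter, and compared by the quasi-likelihood F-test with Benjamini-Hochberg adjustment over 12020 genes (calls at 0.05). The fit left 6 residual degrees of freedom, and its common coefficient of biological variation was 0.101. An SE is the log2 difference divided by the root of F. The procedure was tested on simulated data with a log2 change of 2 set in 200 genes. It recovered from 67% of them (terminally differentiated against differentiated KCs) to 94.5% (basal dividing against basal KCs). False calls made up 12.26% for differentiated against basal KCs, 12.09% for basal dividing against basal KCs and 8.02% for differentiated against transitional KCs. In the other comparisons they made up from 3.6% to 6.42%, against an adjusted p limit of 0.05. Groups with 1 to 3 UMIs have exact conditional intervals (95%) of the UMI ratio, and the limit of a count of 0 is 3 counts. Shares of cells have no test. Scrublet, through scanpy 1.11.5 (Python 3.11.15), called 175 cells (2.30%) and 416 cells (3.50%) as doublets at a common limit of 0.222, since its automatic limit for mouse 1 called 0.0263%. They were kept, and left out in an alternative. The other alternatives were DESeq2 1.42.0, edgeR with DESeq2's size factors, all genes with a count, a replicate block for the mouse, a 5% mitochondrial limit, a resolution of 1.2, no integration, and either mouse left out. The replicate numbers pair the sums, because equal numbers mean 1 animal. Deviations of the mice correlated between groups with r from 0.00399 to 0.396 (median 0.105, 15 pairs). Gene positions are from GENCODE M21 on GRCm38. Figures were drawn with matplotlib 3.10.9.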

Additional observations from a re-analysis of the deposited data

How the results depend on the processing

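Under 5% mitochondrial UMIs, which left 20 and 81 transitional and 76 and 146 differentiated KCs, edgeR called 0 of the 9 genes for transitional against basal KCs, 5 for differentiated against transitional KCs and 0 for terminally differentiated against differentiated KCs. All genes called fell with it, to 609, 908, 1782, 3623 (differentiated against basal), 673 (basal dividing), 3518 (sebaceous against basal) and 2779 (sebaceous against differentiated). In the main grouping they were 2436, 2412, 2968, 6177, 1577, 6367 and 4709 of 12020 genes, in the same order. The log2 difference of Abca12 turned to -0.085 in terminally differentiated KCs, and that of Abhd5 in sebaceous-like cells against differentiated KCs to -0.11, or to -0.00078 at a resolution of 1.2. At that resolution 80 and 88 cells were named differentiated KCs, against 312 and 389 in the main grouping. At a resolution of 1.2, 2 members were called for terminally differentiated against differentiated KCs, where the main grouping called 24.7% of all genes. Genes called were 4393 for differentiated against transitional and 898 for basal dividing against basal KCs. Without integration 115 and 121 cells were named differentiated KCs. In that grouping 6 members and 3781 genes were called for transitional against basal KCs. It also gave 3903 genes for differentiated against transitional KCs and 3 members for terminally differentiated KCs (24.7% of all genes in the main grouping). DESeq2's size factors left 1 member for transitional against basal KCs, and no filter on low counts gave 1 for basal dividing against basal KCs. The main fit called 20.3% and 13.1% of all genes in these 2 comparisons. The replicate block changed no member's call, and raised the genes called for basal dividing against basal KCs from 1577 to 2898. The cause of these changes was not tested. Leaving out either mouse leaves no residual degrees of freedom, so it gave values without a test, and no called difference of a member changed sign. Depth limits Cyp4f39 and every member in terminally differentiated KCs, where 3 counts in mouse 1 are worth 10.3 CPM.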

Other observations

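The sebaceous-like cells with the most Elovl4 UMIs, a set chosen after the values were seen, were also high in sebaceous lipid genes. In the 10 top cells of mouse 1 and the 16 of mouse 2, Awat1, a wax ester synthase gene, was at 868 and 436 CPM, against 115 and 35.1 CPM in the other sebaceous-like cells. Fa2h, the fatty acid 2-hydroxylase gene, was at 2968 and 2517 CPM against 498 and 107 CPM, and the stearoyl-CoA desaturase gene Scd1 at 10170 and 7180 CPM against 2627 and 1202 CPM. Pparg, a regulator of sebocyte differentiation, was at 138 and 92.7 CPM in the top cells and 128 and 112.5 CPM in the others, on either side between the mice. Among the members, Abca12 was at 77.1 and 36.0 CPM against 20.5 and 22.8 CPM and Abhd5 at 207 and 165 CPM against 132 and 105 CPM. Cers3 had 0 UMIs in the top cells of both mice and 2 and 8 in the others (1.14 and 3.38 CPM), too few to tell these sets apart. Cyp4f39 had 4 and 5 UMIs in the top cells (8.11 and 6.92 CPM) against 4 and 1 in the others (2.28 and 0.423 CPM). Alox12b, Aloxe3, Pnpla1 and Ugcg had at most 8 UMIs in either set of a mouse. Over the 99 and 152 sebaceous-like cells, which differ in depth, the level of Elovl4 had a rank correlation with Awat1 of 0.772 and 0.636, with Fa2h of 0.682 and 0.590, and with Pparg of -0.02 and -0.05. Awat1 and Fa2h are named because they ranked 1 and 2 of 7196 genes by the lower of both values, and other sebaceous genes ranked lower, such as Cidea (0.651 and 0.369), Mgst1 (0.473 and 0.281) and Awat2 (0.339 and 0.289). No test was made, since these cells were picked by their Elovl4 level.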
